A study of Mus musculus with 24 samples.

Results

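The enzymes that cut the extracellular matrix and the proteins that hold them back were followed here as 1 gene module. Members were the protein-coding genes of the count table whose symbols mark them as matrix metalloproteinases (Mmp), ADAMTS proteases (Adamts), ADAMTS-like proteins (Adamtsl) or tissue inhibitors of metalloproteinases (Timp1 to Timp4). The rule found 51 of the table's 47967 genes, of which 21977 are protein-coding. They comprise 23 MMPs, 4 TIMPs, 19 ADAMTS proteases and 5 ADAMTS-like proteins.

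MMPs are zinc enzymes made as inactive precursors that together can cut most matrix proteins, either after secretion or, for the membrane-type MMPs, while anchored in the cell membrane. ADAMTS proteases are secreted relatives that bind the matrix through thrombospondin repeats, trim procollagens and cut large proteoglycans, and the ADAMTS-like proteins share these repeats but have no protease domain. TIMPs block the active site of MMPs, and fibroblasts are a main source of many of these proteins in connective tissue and in the heart.

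Gene expression was measured by RNA sequencing in mouse embryonic fibroblasts (MEFs), cells of embryonic connective tissue taken from C57BL/6 embryos. The cells were transduced with retroviruses in 2 rounds and then kept in an induction medium, in a study of how fibroblasts are turned towards heart muscle. The cocktails were GMT (Gata4, Mef2c and Tbx5), GHMT (the same with Hand2) and AGHMT (GHMT with the kinase Akt1), each beside mock-treated MEFs. Each of the 4 treatments was sampled at day 2 and at day 7, giving 8 groups of 3 libraries. The labels do not state whether mock cells received an empty virus or the induction medium, and they name no batch. Nothing says that the 3 libraries of a group are separate cultures, so p-values cover the spread among libraries, and this may be technical.

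The 24 libraries held 29345957 to 37495178 counted reads. Hand2 was at 3.95 CPM (counts scaled to library size with TMM factors) in GMT at day 2 and at 1166 CPM in GHMT, and Gata4, Mef2c and Tbx5 were higher than mock in all 3 cocktails at both days, so the delivered genes went with the labels. Akt1 was 451 CPM in AGHMT at day 7 against 382 CPM in GHMT. Summed over 10 fibroblast markers, libraries held 29690 to 33040 CPM in mock at day 2, 14110 to 19420 CPM in the cocktails at day 2, 61430 to 66810 CPM in mock at day 7 and 5091 to 10770 CPM in the cocktails at day 7. Summed over 10 heart muscle markers, they held 21.3 to 24.58 CPM in mock at day 7 and 9015 to 21110 CPM in the cocktails. Summed over 12 macrophage markers, none of which was at 0 in any group, they held 53.8 to 55.39 CPM in mock at day 2, 14.33 to 49.53 CPM in the cocktails at day 2, 379 to 551.8 CPM in mock at day 7 and 41.39 to 65.94 CPM in the cocktails at day 7. In bulk RNA, fewer cells of a type and less RNA per cell cannot be told apart, and the part of these marker shifts in the results on the module was not tested. Summed over 10 epithelial and mesothelial markers, libraries at day 7 held 156.3 to 179.5 CPM in mock, 256.4 to 275.6 CPM in GMT, 633 to 685.1 CPM in GHMT and 169.1 to 187.7 CPM in AGHMT, and its part in the Hand2 and Akt1 steps was not tested. Markers of osteoclasts, which make Mmp9, summed to at most 6.555 CPM. The libraries that stand apart are 3 (GHMT day 2 replicate 3, AGHMT day 2 replicate 3 and GHMT day 7 replicate 2), in which deviations from the group mean fell with exon length (rho -0.42 to -0.26, against -0.10 to 0.34 in the others). The member calls that changed without these libraries are given after those on the Hand2 and Akt1 steps.

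Of the 51 members, 44 had enough reads to be tested and 7 did not. Over all 24 libraries, Mmp25 had 98 counts, Mmp21 had 24, Mmp1b 22, Adamts13 9, Mmp1a 3, Mmp7 2 and Mmp20 none. A count of 0 allows up to 3 counts, which is 0.102 CPM in the smallest library. A member that passed the filter only through the group where it is high had to differ between groups, so counts below are of members tested and are read against the share of all 17576 tested genes. Differences are log2 fold changes ± SE from edgeR's quasi-likelihood F test, called at a Benjamini-Hochberg adjusted p under 0.05 over all tested genes, and levels are means ± SD with n = 3.

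At day 7 most members were lower in the cocktail groups than in mock. With GMT, 32 of 44 were lower and 7 higher, against 36% of all tested genes lower and 37.1% higher. With GHMT, 32 were lower and 7 higher (all genes 35.6% and 36.3%), and with AGHMT 32 were lower and 9 higher (38.1% and 38.6%). The members' median log2 fold change was -1.45 with GMT, -1.36 with GHMT and -1.29 with AGHMT, while the median over all tested genes lay between -0.02 and 0.01 in every comparison. These comparisons share 1 mock group.

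At day 2 the members were more evenly split. GMT had 28 members lower and 13 higher (all genes 33.1% and 33.9%), GHMT had 23 lower and 13 higher (33.3% and 34.9%), and AGHMT had 26 lower and 15 higher (37.4% and 38%). The medians were -0.33, -0.59 and -0.70. Percentages called were high among all tested genes too in these comparisons with mock, and the reason was not tested.

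**Figure D1:**
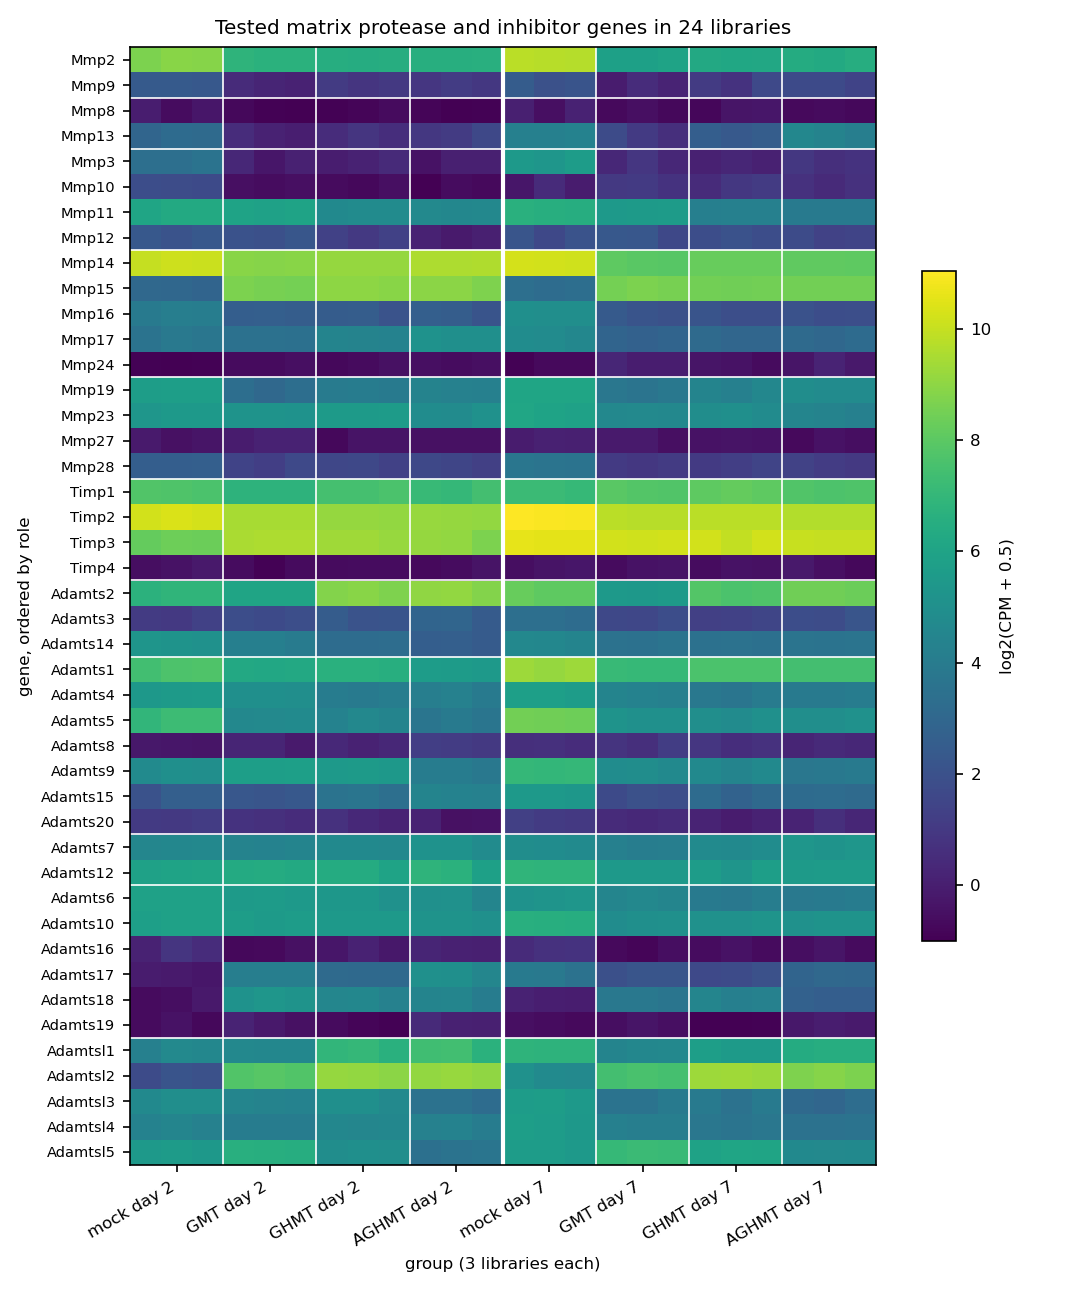
Level of the 44 tested members (vertical, grouped by role) in each of the 24 libraries (horizontal, grouped by treatment and day), coloured by log2 of CPM plus 0.5. Mmp15, Adamtsl2 and Adamts18 are brighter in every cocktail library than in mock of the same day, while Mmp2 and Adamts5 are darker.

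Per kilobase of exon, the summed level of the 23 MMPs was 581.4 CPM per kb in mock at day 7 (libraries 565.76 to 599.95) and 166.9, 169.3 and 170.19 CPM per kb in GMT, GHMT and AGHMT (all 9 libraries 164.97 to 172.62). TIMP transcripts exceeded MMP transcripts in every group on this scale, with sums at day 7 of 860.28 CPM per kb in mock, 627.37 in GMT, 674.34 in GHMT and 567.26 in AGHMT. Without division by exon length the order was turned in AGHMT at day 2, at 1441.3 CPM for MMPs and 1213.1 CPM for TIMPs. In mock at day 2 the 2 sums were then near level, at 1752.3 and 1763.2 CPM. At day 7 the ADAMTS proteases summed to 238.48 CPM per kb in mock and to 57.824, 87.64 and 97.61 in GMT, GHMT and AGHMT. At day 2 these sums were 105.57 CPM per kb in mock and 66.694, 102.86 and 101.01 in the cocktails. Without division by exon length, GHMT and AGHMT were above mock at day 2, at 866.88 and 871.97 CPM against 773.64 CPM. At day 7 only the sum of the 5 ADAMTS-like genes was higher in the cocktails. It was 40.374 CPM per kb in mock (libraries 37.448 to 42.842) and 60.27, 100.43 and 69.78 CPM per kb in GMT, GHMT and AGHMT. Adamtsl2 made up 77.8% of it in GHMT and 76.9% in AGHMT, and in GMT Adamtsl5 made up 49.8% and Adamtsl2 37.5%. Adamtsl1, Adamtsl3 and Adamtsl4 were lower than mock in all 3 cocktails at day 7, and Adamtsl5 was lower with AGHMT.

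The gelatinases, which cut denatured collagen and the type IV collagen of basement membranes, were lower in all 3 cocktails at both days. Mmp2 (gelatinase A, chr8:92827291-92853420 on GRCm38, plus strand) was the second most abundant MMP of mock cells at day 2 and the first at day 7 per kilobase. At day 2 its library values were 402, 477 and 467 CPM in mock, 112, 102 and 104 CPM in GMT, 91.5, 87.9 and 88.8 CPM in GHMT and 93.9, 92.2 and 94.9 CPM in AGHMT. At day 7 Mmp2 was at 874, 855 and 828 CPM in mock, 56.3, 56.9 and 62.5 CPM in GMT, 76.7, 71.5 and 75.1 CPM in GHMT and 84.4, 79.5 and 89.04 CPM in AGHMT. Every mock library was above every cocktail library at both days, and mock rose by 0.93 from day 2 to day 7. Against mock, Mmp2 differed by -2.08 ± 0.06 with GMT at day 2 (edgeR adjusted p = 2.67e-20) and by -3.86 ± 0.06 at day 7 (adjusted p = 3.6e-25), with GHMT at -2.33 and -3.52 and AGHMT at -2.26 and -3.34 on the 2 days. The shift between days was -1.78 ± 0.08 for GMT (edgeR adjusted p = 4.17e-15). Within the cocktails at day 7 the order was GMT, GHMT, AGHMT from low to high, with 0.35 between GHMT and GMT and 0.18 between AGHMT and GHMT, and the second step missed the threshold without AGHMT replicate 3 (edgeR adjusted p = 0.0847) or GHMT replicate 2 (0.0619).

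Mmp9 (gelatinase B), an enzyme also made by macrophages and osteoclasts, was scarce, at 4.74 ± 0.179 CPM in mock at day 2 and 4.13 ± 0.903 CPM at day 7. It was lower in every cocktail, from -2.67 with GMT at day 2 to -0.69 with AGHMT at day 7. GMT had the lowest level at both days (0.736 and 0.677 CPM), and GHMT exceeded GMT by 0.99 ± 0.29 at day 2 (edgeR adjusted p = 0.00667) and 1.41 ± 0.28 at day 7 (adjusted p = 0.000189).

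A run of 10 MMP genes, collagenases and stromelysins among them, lies side by side on chromosome 9 (chr9:7272514-7699585, 427.1 kb). The order along the chromosome is Mmp13, Mmp12, Mmp1b, Mmp3, Mmp1a, Mmp10, Mmp8, Mmp27, Mmp20 and Mmp7, and 6 of the 10 were tested. The 100 bases before the transcript start (RefSeq, GRCm38.p6) are shown for the 4 members of this cluster with the largest read counts in any group, because all 4 hold the AP-1 letters and all but Mmp12 also hold TATAAA. Capitals mark the AP-1 letters TGANTCA, which read the same on both strands, and TATAAA. The windows are chr9:7272414-7272513 for Mmp13, chr9:7347274-7347373 for Mmp12 (its second RefSeq start, since the window of the first holds neither motif), chr9:7445722-7445821 for Mmp3 and chr9:7502242-7502341 for Mmp10, all on the plus strand.
Mmp13: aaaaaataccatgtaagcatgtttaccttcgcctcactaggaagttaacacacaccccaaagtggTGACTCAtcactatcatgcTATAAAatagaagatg
Mmp12: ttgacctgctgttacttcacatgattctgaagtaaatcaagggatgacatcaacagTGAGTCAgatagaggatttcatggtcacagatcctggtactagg
Mmp3: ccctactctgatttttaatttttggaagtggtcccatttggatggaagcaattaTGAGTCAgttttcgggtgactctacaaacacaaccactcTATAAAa
Mmp10: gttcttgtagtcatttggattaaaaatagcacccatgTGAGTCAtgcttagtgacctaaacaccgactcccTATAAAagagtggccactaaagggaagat

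In the 250 bases upstream of their starts, the 10 cluster genes have 12 windows, of which 8 held TGANTCA (66.7%), against 6.75% of 32851 RefSeq promoter windows. Mmp8 and Mmp27 had no such window, and Mmp12 and Mmp7 had 1 of 2. TATAAA, searched on both strands, was in 7 of the 12 (58.3%), against 12.4% of windows. The 12 windows belong to neighbouring genes of 1 family, so they are not independent draws from all windows. Their GC content was 37.2% to 53.2%, against a median of 52.4% over all windows, and its part in these shares was not tested. No other member with a window held TGANTCA, among 36 of the 51 members that the promoter table covers. A match is only a run of letters and shows no binding. Searched the same way, AGATAA (the GATA letters, both strands) was in 3 of the 39 windows of members (7.69%) against 9.99% of all windows, the MEF2 letters (CTA and TAG with any 4 between) in none against 3.2%, AGGTGT (T-box letters) in none against 11.8%, and CANNTG (E-box letters) in 28 (71.8%) against 66.2%.

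Transcripts of the tested cluster genes did not move as 1 block. Mmp3 (stromelysin 1, chr9:7445822-7455975), which cuts proteoglycans and activates other MMPs, was at 10.2, 10.1 and 11.6 CPM in mock, 0.775, 0.338 and 0.564 CPM in GMT, 0.463, 0.629 and 0.866 CPM in GHMT and 0.261, 0.526 and 0.527 CPM in AGHMT at day 2. At day 7 Mmp3 was at 44.03, 39.9 and 49.4 CPM in mock, 0.771, 1.37 and 0.779 CPM in GMT, 0.588, 0.707 and 0.59 CPM in GHMT and 1.42, 1.04 and 1.22 CPM in AGHMT. All 6 mock libraries were above all 18 cocktail libraries. The differences from mock at day 7 were -5.51 ± 0.15 with GMT, -6.13 ± 0.16 with GHMT and -5.17 ± 0.15 with AGHMT (edgeR adjusted p = 1.17e-20, 6.46e-21 and 2.47e-20), the lowest among members of at least 20 CPM in a group.

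Mmp13 (collagenase 3, chr9:7272514-7283331), which cuts fibrillar collagen, departed from Mmp3 in AGHMT. It was at 7.03, 8.85 and 8.44 CPM in mock, 0.956, 0.62 and 0.505 CPM in GMT, 0.925, 1.29 and 0.999 CPM in GHMT and 1.42, 1.61 and 2.58 CPM in AGHMT at day 2. At day 7 Mmp13 was at 18.7, 18.7 and 19.8 CPM in mock, 2.91, 1.54 and 1.02 CPM in GMT, 5.6, 4.59 and 5.41 CPM in GHMT and 23.3, 20.2 and 17.5 CPM in AGHMT. Every day 2 cocktail library was below every mock library, whereas at day 7 the AGHMT libraries reached the mock level and the GMT libraries stayed lowest. At day 7 AGHMT differed from mock by 0.09 ± 0.15 (edgeR adjusted p = 0.575), and exceeded GHMT by 1.97 ± 0.17 (adjusted p = 4.13e-10), while GHMT exceeded GMT by 1.53 ± 0.23 (adjusted p = 6.61e-06). The AGHMT effect against mock thus differed between days by 2.19. The day 2 difference of AGHMT from GHMT (0.81) lost its call without the 3 libraries that stand apart (edgeR adjusted p = 0.347). It was also lost without AGHMT replicate 3 or GHMT replicate 1 or 3 (edgeR adjusted p = 0.229, 0.111 and 0.089).

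Mmp10 (stromelysin 2, chr9:7502352-7510240) was low everywhere and changed sides between the days. At day 2 it was at 3.09, 2.95 and 2.81 CPM in mock, 0.207, 0.169 and 0.208 CPM in GMT, 0.132, 0.0994 and 0.200 CPM in GHMT and 0, 0.164 and 0.111 CPM in AGHMT, which in AGHMT came from 9 reads over the group. At day 7 Mmp10 was at 0.325, 0.905 and 0.444 CPM in mock, 1.48, 1.54 and 1.18 CPM in GMT, 0.897, 1.41 and 1.64 CPM in GHMT and 1.13, 0.849 and 1.13 CPM in AGHMT. Mock was above every cocktail library at day 2 and had the lowest mean at day 7, where its highest library was above the lowest of GHMT and of AGHMT. GMT differed from mock by -3.90 ± 0.31 at day 2 and 1.32 ± 0.29 at day 7, a day difference of 5.22 ± 0.43 (edgeR adjusted p = 2.96e-10). With AGHMT at day 7 the difference was 0.89 ± 0.31, which missed the threshold without mock replicate 1 (edgeR adjusted p = 0.0922) or mock replicate 3 (0.0538).

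Mmp12 (macrophage elastase, chr9:7344381-7369499) was at 4.43, 3.68 and 4.49 CPM in mock, 3.54, 3.38 and 4.16 CPM in GMT, 1.98, 1.52 and 1.999 CPM in GHMT and 0.609, 0.427 and 0.527 CPM in AGHMT at day 2. At day 7 Mmp12 was at 3.96, 2.53 and 3.68 CPM in mock, 4.51, 4.37 and 2.58 CPM in GMT, 3.08, 3.59 and 3.15 CPM in GHMT and 2.83, 2.12 and 2.23 CPM in AGHMT. At day 2 the AGHMT libraries were below all others, and at day 7 the mock range overlapped that of every cocktail. The day 7 difference of AGHMT from mock (-0.50 ± 0.19, edgeR adjusted p = 0.0207) was lost without any 1 of 4 libraries (adjusted p up to 0.111 without mock replicate 1). AGHMT differed from mock by -2.99 ± 0.24 at day 2 (edgeR adjusted p = 4.68e-11) and from GHMT by -1.80 ± 0.29 (adjusted p = 1.11e-05). Over the day 2 groups the macrophage marker sum ran from 14.33 to 18.01 CPM in AGHMT, 32.73 to 38.89 CPM in GHMT, 39.16 to 49.53 CPM in GMT and 53.8 to 55.39 CPM in mock, and its part in the Mmp12 values was not tested. Between mock at day 2 and at day 7 that sum rose to at least 379 CPM while Mmp12 differed by -0.31 ± 0.17 (edgeR adjusted p = 0.138).

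Mmp8, the collagenase stored by neutrophils, had 33 reads over the mock group at day 2 and 3 to 7 in each cocktail group, and 44 against 11 to 24 at day 7. The summed level of 8 neutrophil markers was at most 1.006 CPM in any library, and Elane was at 0 counts in 6 of the 8 groups. Mmp27 stayed at or below 0.561 CPM in every group.

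The membrane-type MMPs split into genes that were higher and genes that were lower with the cocktails. Mmp14 (MT1-MMP, chr14:54431612-54445364), the membrane enzyme that activates Mmp2 in a complex with Timp2, was at 1000.2, 1112 and 1063 CPM in mock, 474, 459 and 469.96 CPM in GMT, 569, 561 and 558 CPM in GHMT and 759, 744 and 779.9 CPM in AGHMT at day 2. At day 7 Mmp14 was at 1245, 1202 and 1156 CPM in mock, 262, 250.02 and 239.6 CPM in GMT, 300.1, 302 and 303 CPM in GHMT and 272, 269.9 and 262 CPM in AGHMT. No cocktail library reached a mock library at either day, and AGHMT was the highest cocktail at day 2 but not at day 7. The differences from mock at day 2 were -1.18 with GMT, -0.91 with GHMT and -0.48 with AGHMT, and at day 7 -2.26 ± 0.04, -1.99 ± 0.04 and -2.16 ± 0.04 (edgeR adjusted p = 8.32e-24, 8.3e-23 and 1.62e-23). The effect differed between days by -1.08 for GMT, -1.08 for GHMT and -1.69 for AGHMT, which share the mock groups, and the differences among these shifts were not tested.

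Mmp15 (MT2-MMP, chr8:95352268-95375080), a relative of Mmp14 with a similar membrane anchor, went the other way. It was at 7.75, 7.72 and 6.94 CPM in mock, 400.2, 379.98 and 373 CPM in GMT, 517, 518 and 484 CPM in GHMT and 493, 492 and 421 CPM in AGHMT at day 2. At day 7 Mmp15 was at 9.96, 8.93 and 9.61 CPM in mock, 371, 406 and 380.2 CPM in GMT, 355, 349.7 and 350.4 CPM in GHMT and 352, 358 and 358 CPM in AGHMT. Every one of the 18 cocktail libraries was above every mock library, and mock stayed low at both days. Against mock the difference was 5.68 ± 0.07 with GMT, 6.08 ± 0.07 with GHMT and 5.97 ± 0.07 with AGHMT at day 2 (edgeR adjusted p = 3.55e-27, 7.35e-28 and 9.08e-28) and 5.34, 5.21 and 5.23 at day 7. Among the cocktails, GHMT exceeded GMT at day 2 by 0.40, and no step was called at day 7. The day 7 difference of GHMT from GMT was at -0.13 without the 3 libraries that stand apart, where it was called (edgeR adjusted p = 0.00441), as it was with only the compared libraries (0.0208), with the replicate block (0.0369) and without GMT replicate 1 (0.0396).

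The 100 bases before its start (chr8:95352196-95352295, plus strand, RefSeq GRCm38.p6) are shown next. They hold neither of the 2 capitalised motifs, which most RefSeq promoter windows also lack.
Mmp15: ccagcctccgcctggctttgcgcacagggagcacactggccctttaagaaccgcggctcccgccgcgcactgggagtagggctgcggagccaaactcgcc

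With Mmp2 and Mmp14 low and Mmp15 high, the make-up of the MMP transcripts was reordered. In mock at day 7, Mmp2 made up 43.5% of the summed MMP level per kilobase and Mmp14 34.7%, with Mmp15 at 0.303%. In the cocktails at day 7 Mmp15 came first, at 42.8% with GMT, 38.5% with GHMT and 38.8% with AGHMT, followed by Mmp14 at 25.2%, 29.9% and 26.4%. At day 2 Mmp14 still led in mock (45.4%), GMT (34.8%) and AGHMT (46.1%). In GHMT at day 2 Mmp14 and Mmp15 were level, at 37% and 36.8%, with Mmp15 the higher in replicates 1 and 2 and Mmp14 the higher in replicate 3, which is 1 of the libraries that stand apart. These shares are a description on the CPM per kb scale.

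**Figure D2:**
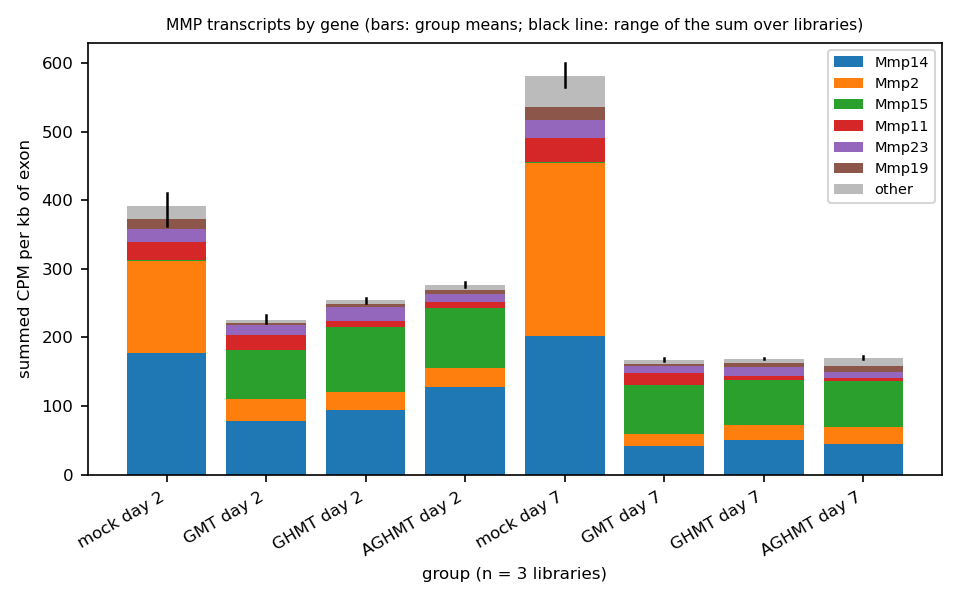
Stacked bars of the summed MMP level in each group (CPM per kb of exon, mean of 3 libraries), divided by gene, with the range of the sum over libraries as a black line. Mock bars are mostly Mmp2 and Mmp14, while Mmp15 takes 31.4% to 42.8% of the cocktail bars.

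The remaining membrane-type MMPs were scarcer. Mmp16 (MT3-MMP) was at 14.98, 17.4 and 16.6 CPM in mock, 5.53, 5.67 and 5.31 CPM in GMT, 5.19, 5.27 and 3.8 CPM in GHMT and 5.77, 5.36 and 3.88 CPM in AGHMT at day 2. At day 7 Mmp16 was at 31.4, 30.1 and 30.02 CPM in mock, 4.89, 3.88 and 3.41 CPM in GMT, 3.89, 3.15 and 3.25 CPM in GHMT and 3.59, 3.07 and 3.18 CPM in AGHMT. Mock was above every cocktail at both days, with day 7 differences of -2.91, -3.15 and -3.22. Mmp17 (MT4-MMP, held by a lipid anchor) was at 11.5, 13.9 and 12.9 CPM in mock, 10.9, 10.6 and 10.5 CPM in GMT, 21.3, 20.1 and 19.9 CPM in GHMT and 35.1, 31.6 and 31.3 CPM in AGHMT at day 2. At day 7 Mmp17 was at 28.9, 27.7 and 23.6 CPM in mock, 6.85, 6.11 and 6.82 CPM in GMT, 8.35, 7.42 and 7.28 CPM in GHMT and 8.34, 7.64 and 8.8 CPM in AGHMT. AGHMT was the highest group at day 2 and below mock at day 7, with differences from mock of 1.35 ± 0.08 and -1.69 ± 0.08 (edgeR adjusted p = 2.91e-14 and 1.28e-15) and a day difference of -3.05. Mmp24 (MT5-MMP) had 2 reads in the mock group at day 2 and 14 to 19 in the cocktail groups, and 9 against 24 to 59 at day 7. It shares 13.6% of its exons with BC029722 on the opposite strand, which had 16819 reads in all libraries together. The day 7 call of GHMT against mock was lost without the 3 libraries that stand apart (edgeR adjusted p = 0.0549) and without GHMT replicate 1 or 2 or mock replicate 1 (up to 0.137).

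Among the other secreted MMPs, Mmp11 (stromelysin 3, activated inside the cell by furin, chr10:75923222-75936496) was at 67.8, 78.95 and 77.9 CPM in mock, 62.99, 59.4 and 62.6 CPM in GMT, 25.5, 27.1 and 27.7 CPM in GHMT and 24.6, 23.7 and 24.2 CPM in AGHMT at day 2. At day 7 Mmp11 was at 99.8, 93.6 and 91.2 CPM in mock, 45.9, 46.6 and 48.3 CPM in GMT, 17.96, 18.4 and 18.2 CPM in GHMT and 15.2, 14.4 and 14.5 CPM in AGHMT. GMT lay between mock and the cocktails with Hand2 at both days. The step from GMT to GHMT was -1.20 ± 0.05 at day 2 and -1.37 ± 0.06 at day 7 (edgeR adjusted p = 1.26e-15 and 2.53e-16). Mmp11 shares 5.6% of its exons with Chchd10 on the opposite strand, and how strand was treated in counting is not given in the sources used here.

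Mmp19, a secreted MMP of connective tissue, was at 51.8, 53.04 and 53.1 CPM in mock, 9.64, 7.98 and 9.86 CPM in GMT, 15.6, 16.3 and 14.8 CPM in GHMT and 20.6, 18.8 and 18.6 CPM in AGHMT at day 2. At day 7 Mmp19 was at 68.1, 67.3 and 67.2 CPM in mock, 13.02, 12.1 and 13.7 CPM in GMT, 21.1, 18.5 and 23.1 CPM in GHMT and 29.1, 27.9 and 27.7 CPM in AGHMT. All cocktail libraries were below all mock libraries, and within the cocktails the level rose from GMT to GHMT to AGHMT on both days, by 0.76 and 0.31 at day 2 and 0.69 and 0.44 at day 7. It shares 22.3% of its exons with Tmem198b on the opposite strand.

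Mmp23, an MMP with an unusual membrane anchor at its amino end, was at 39.9, 45.1 and 45.5 CPM in mock, 35.7, 35.8 and 34.9 CPM in GMT, 46.6, 46.5 and 48.4 CPM in GHMT and 28.05, 27.2 and 33.6 CPM in AGHMT at day 2. At day 7 Mmp23 was at 68.3, 62.4 and 58.9 CPM in mock, 24.3, 25.1 and 24.3 CPM in GMT, 29.3, 31.2 and 27.9 CPM in GHMT and 21.7, 20.4 and 18.8 CPM in AGHMT. At day 2 the difference of GHMT from mock was not called (0.12 ± 0.07, edgeR adjusted p = 0.143), and at day 7 all cocktails were lower, at -1.37, -1.10 and -1.64. Mmp28 (epilysin) was at 12.1 ± 0.708 CPM in mock at day 7 and at 1.54, 1.89 and 1.77 CPM in the cocktails, with differences of -2.97, -2.68 and -2.77.

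The 4 inhibitors differed among themselves. Timp2 (chr11:118301069-118355740), which both inhibits Mmp2 and helps Mmp14 to activate it, was at 1189.5, 1299 and 1224 CPM in mock, 698, 703 and 703 CPM in GMT, 571, 555 and 549 CPM in GHMT and 572, 558 and 539 CPM in AGHMT at day 2. At day 7 Timp2 was at 2107, 1987 and 1918 CPM in mock, 886, 864 and 851 CPM in GMT, 874, 880.2 and 883 CPM in GHMT and 807, 804 and 794 CPM in AGHMT. Mock libraries were above all cocktail libraries at both days, with differences at day 7 of -1.21 ± 0.04, -1.19 ± 0.04 and -1.32 ± 0.04 (edgeR adjusted p = 6e-19, 8.25e-19 and 8.33e-20). At day 7 the mock level was 2.31-fold that of GMT for Timp2 and 14.6-fold for Mmp2.

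Timp3 (chr10:86300372-86349506), the inhibitor that stays bound to the matrix and also blocks several ADAMTS proteases, was at 293, 331 and 320.03 CPM in mock, 724, 751 and 759 CPM in GMT, 633, 644 and 583 CPM in GHMT and 566, 548 and 412 CPM in AGHMT at day 2. At day 7 Timp3 was at 1533, 1516 and 1482 CPM in mock, 1178, 1157 and 1199 CPM in GMT, 1180.2, 993 and 1189 CPM in GHMT and 1036, 1013 and 1010.1 CPM in AGHMT. At day 2 every cocktail library was above every mock library, and at day 7 the order was turned. Mock had risen by 2.26 between the days. The cocktail means rose too, from 745 to 1178 CPM in GMT, 620 to 1121 CPM in GHMT and 509 to 1020 CPM in AGHMT, which was not tested. Against mock, GMT differed by 1.24 ± 0.08 at day 2 and -0.36 ± 0.08 at day 7 (edgeR adjusted p = 9.39e-13 and 0.00031), GHMT by 0.98 and -0.43, and AGHMT by 0.69 and -0.57. The day differences were -1.60, -1.41 and -1.26. The gene lies inside Syn3, on the opposite strand, which had 505 reads in all libraries together, and Timp1 and Timp4 likewise lie inside Syn1 and Syn2.

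Timp1 (chrX:20870166-20874735), an inhibitor of many secreted MMPs that blocks membrane-type MMPs poorly, was at 221, 212 and 198 CPM in mock, 111, 111 and 109.8 CPM in GMT, 179, 177 and 197 CPM in GHMT and 138, 131 and 176 CPM in AGHMT at day 2. At day 7 Timp1 was at 145, 149.5 and 132 CPM in mock, 248, 223 and 221 CPM in GMT, 264, 296 and 268 CPM in GHMT and 216, 205 and 209 CPM in AGHMT. Its order was the reverse of Timp3, with mock the highest group by mean at day 2 and the lowest at day 7, and no cocktail library overlapped mock on either day. GMT differed from mock by -0.93 ± 0.08 and 0.70 ± 0.08 (edgeR adjusted p = 1.47e-10 and 1.89e-08), GHMT by -0.19 and 0.96, and AGHMT by -0.50 and 0.56. The GHMT difference at day 2 missed the threshold without replicate 1 or 2 of GHMT or of mock (edgeR adjusted p = 0.0771 to 0.125). Timp4, an inhibitor enriched in heart, stayed at or below 0.269 CPM in every group and was called only with GMT at day 2 (-1.24 ± 0.50, edgeR adjusted p = 0.0321), a call lost with DESeq2 (adjusted p = 0.0559) and without GMT replicate 2 or mock replicate 3.

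**Figure D3:**
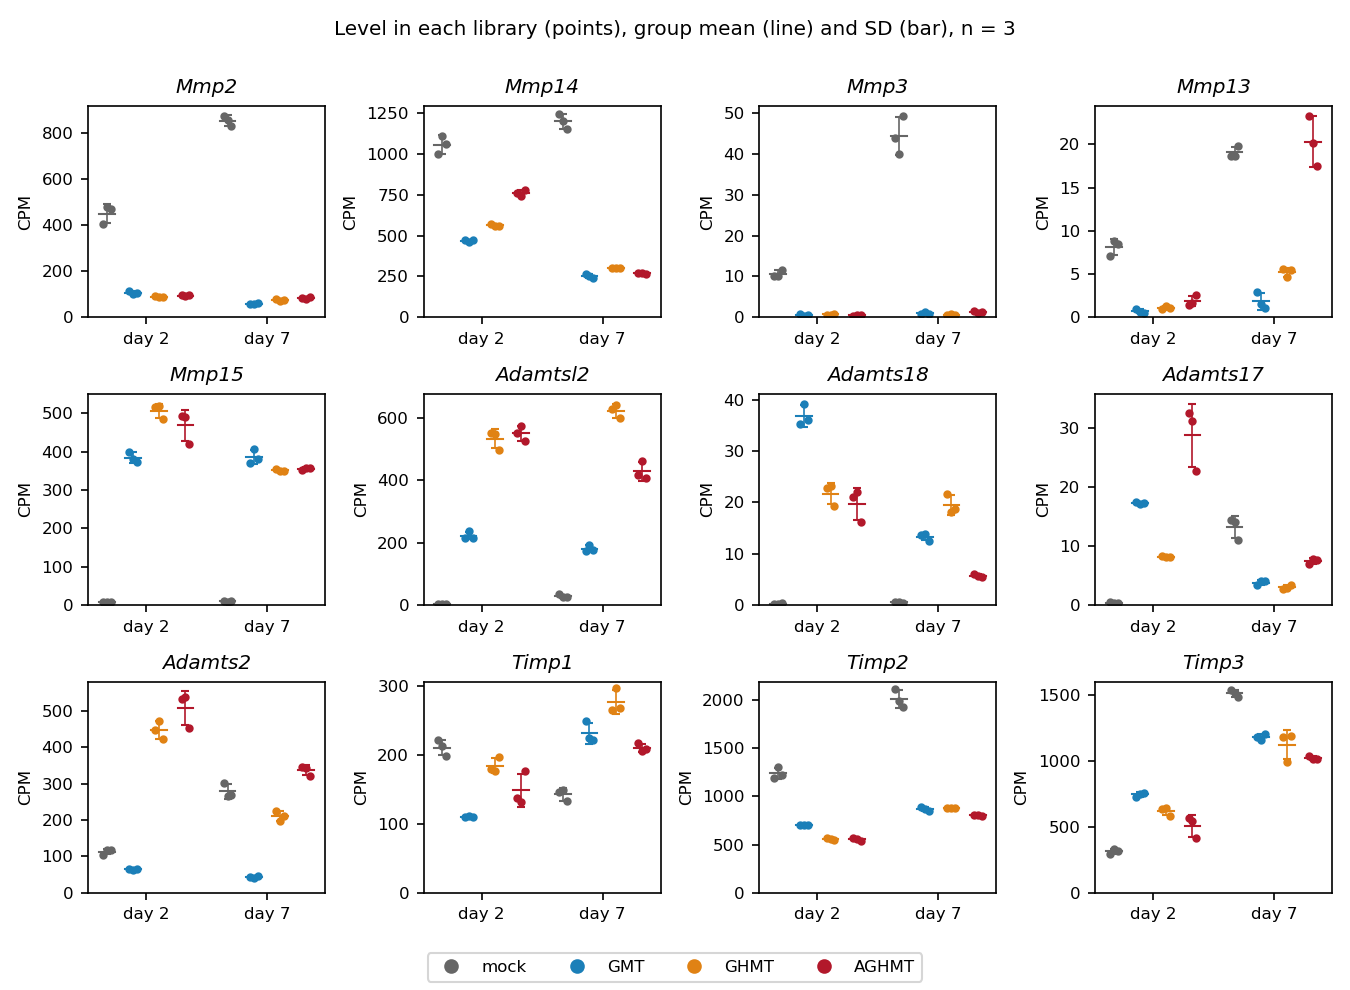
Level of 12 members in each of the 24 libraries (points, CPM on a linear axis from 0) by day and treatment, with the group mean (line) and SD (bar). Mmp2 points of mock lie above those of every cocktail at both days, and Mmp15 and Adamtsl2 points lie below them.

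The procollagen N-proteinases remove the amino-terminal propeptides of fibrillar collagens. Adamts2 (chr11:50602084-50807573), the main enzyme of this step for type I collagen, was at 105, 118 and 116 CPM in mock, 65.2, 64.03 and 65.8 CPM in GMT, 446, 470.4 and 423 CPM in GHMT and 532, 537 and 452 CPM in AGHMT at day 2. At day 7 Adamts2 was at 301, 267 and 268 CPM in mock, 44.1, 41.9 and 47.2 CPM in GMT, 224, 198 and 211 CPM in GHMT and 346, 344 and 322 CPM in AGHMT. Libraries with Hand2 stood above GMT at both days with no overlap, by 2.78 ± 0.07 at day 2 and 2.25 ± 0.07 at day 7 (edgeR adjusted p = 2.98e-20 and 1.75e-18). Against mock, GMT was lower at both days (-0.80 and -2.65), GHMT was higher at day 2 and lower at day 7 (1.98 and -0.40), and AGHMT was higher at both (2.16 and 0.28). The Akt1 step at day 7 was 0.68 ± 0.07 (edgeR adjusted p = 4.73e-09), while at day 2 it was 0.18 and lost its call when only the compared libraries were fitted (edgeR adjusted p = 0.101). That day 2 call was also lost without AGHMT replicate 1 or 2 or GHMT replicate 3 (edgeR adjusted p = 0.0792, 0.0914 and 0.104).

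Adamts14, another of these enzymes, was at 38.3, 35.9 and 34.1 CPM in mock, 17.6, 18.1 and 15.7 CPM in GMT, 8.99, 9.14 and 9.36 CPM in GHMT and 5.62, 5.85 and 4.99 CPM in AGHMT at day 2. At day 7 Adamts14 was at 23.8, 22.98 and 21.02 CPM in mock, 11.2, 10.7 and 11.9 CPM in GMT, 10.6, 11.2 and 10.5 CPM in GHMT and 11.7, 11.4 and 11.9 CPM in AGHMT. All cocktails were below mock, and at day 2 it was lower with each added factor, at -0.90 from GMT to GHMT and -0.74 from GHMT to AGHMT. Adamts3, which also processes the lymphatic growth factor VEGF-C, was at 1.73 CPM in mock at day 2 and 9.67 CPM at day 7, and the cocktails were above it at day 2 (0.83, 1.31 and 1.87) and below it at day 7 (-1.83, -2.21 and -1.51).

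The ADAMTS proteoglycanases cut aggrecan, versican and related proteoglycans. Of the 7, 6 were lower at day 7 in each cocktail comparison and none was higher, against 35.6% to 38.1% of all tested genes lower and 36.3% to 38.6% higher. Adamts1 (chr16:85793827-85803113), an enzyme with versican among its substrates, was the most abundant ADAMTS gene of mock cells per kilobase. Its values at day 2 were 167, 206 and 209 CPM in mock, 76.7, 73.1 and 75.5 CPM in GMT, 101, 99.4 and 91.7 CPM in GHMT and 50.2, 48.1 and 45.8 CPM in AGHMT. At day 7 Adamts1 was at 624, 560.1 and 619.9 CPM in mock, 138, 135 and 132 CPM in GMT, 199.8, 195 and 197 CPM in GHMT and 171, 172 and 171 CPM in AGHMT. Mock was highest on both days, and GHMT was above GMT on both. The differences at day 7 were -2.16 ± 0.06, -1.61 ± 0.06 and -1.81 ± 0.06 (edgeR adjusted p = 3.92e-20, 1.16e-17 and 1.01e-18).

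Adamts5 (chr16:85856173-85901828), a strong aggrecanase, was at 122, 150.1 and 155 CPM in mock, 24.5, 25.3 and 27.04 CPM in GMT, 19.5, 24.4 and 21.2 CPM in GHMT and 12.5, 14.6 and 12.5 CPM in AGHMT at day 2. At day 7 Adamts5 was at 350.4, 344 and 337 CPM in mock, 35.5, 32.95 and 32.4 CPM in GMT, 30.9, 27.9 and 32.8 CPM in GHMT and 29.9, 30.3 and 33.5 CPM in AGHMT. Mock rose by 1.27 between the days, and no cocktail library reached a mock library at either. The differences at day 7 were -3.35 ± 0.08, -3.49 ± 0.09 and -3.46 ± 0.09 (edgeR adjusted p = 1.87e-21, 1.04e-21 and 1.13e-21). Adamts4, its close relative among aggrecanases, was at 42.1, 46.8 and 47.6 CPM in mock, 31.3, 30.9 and 30.5 CPM in GMT, 16.2, 14.9 and 16.5 CPM in GHMT and 17.5, 18.9 and 15.1 CPM in AGHMT at day 2. At day 7 Adamts4 was at 55.9, 55.6 and 50.2 CPM in mock, 21.4, 19.4 and 18.4 CPM in GMT, 13.5, 12.1 and 15.4 CPM in GHMT and 14.9, 14.9 and 16.3 CPM in AGHMT. From high to low the order was mock, GMT and then the cocktails with Hand2, and the Akt1 step at day 7 was not called (0.17 ± 0.09, edgeR adjusted p = 0.106).

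Adamts9 (chr6:92772699-92943492), a versican-cutting enzyme that shares 9.2% of its exons with A730049H05Rik on the opposite strand, was at 26.3, 31.6 and 30.8 CPM in mock, 52.7, 53.9 and 54.9 CPM in GMT, 44.8, 46.8 and 42.4 CPM in GHMT and 16.3, 16.4 and 13.7 CPM in AGHMT at day 2. At day 7 Adamts9 was at 129, 125 and 128 CPM in mock, 28.7, 29.2 and 25.4 CPM in GMT, 25.9, 21.2 and 26.01 CPM in GHMT and 13.4, 13.7 and 14.8 CPM in AGHMT. GMT and GHMT were above mock at day 2 (0.86 and 0.59), AGHMT was below it (-0.94), and all 3 were below it at day 7 (-2.20, -2.39 and -3.19). AGHMT was below GHMT at both days, by -1.53 ± 0.08 and -0.80 ± 0.08 (edgeR adjusted p = 4.77e-14 and 2.02e-08). Adamts15 was at 3.59, 5.66 and 5.74 CPM in mock, 4.39, 4.03 and 4.51 CPM in GMT, 11.5, 12.2 and 9.89 CPM in GHMT and 20.98, 19.9 and 18.9 CPM in AGHMT at day 2. At day 7 Adamts15 was at 44.8, 44.1 and 41.5 CPM in mock, 2.73, 3.46 and 3.2 CPM in GMT, 8.66, 6.44 and 8.1 CPM in GHMT and 8.78, 9.07 and 8.51 CPM in AGHMT. The cocktails with Hand2 were above mock at day 2 (1.16 and 1.99) and below it at day 7 (-2.49 and -2.31), after mock rose by 3.12. Adamts8 was at 0.35, 0.325 and 0.299 CPM in mock, 0.698, 0.705 and 0.416 CPM in GMT, 0.826, 0.596 and 0.766 CPM in GHMT and 1.85, 1.71 and 1.47 CPM in AGHMT at day 2. At day 7 Adamts8 was at 1.03, 1.12 and 0.951 CPM in mock, 1.25, 1.06 and 1.8 CPM in GMT, 1.4, 0.979 and 1.15 CPM in GHMT and 0.692, 0.849 and 0.773 CPM in AGHMT. AGHMT was the highest group at day 2 (2.35 ± 0.24 against mock, edgeR adjusted p = 3.01e-09), and no cocktail differed from mock by the test at day 7. Adamts20 reached at most 1.92 CPM in a library and was lower than mock in each cocktail at both days, with the GMT call at day 2 lost without GMT replicate 3 or mock replicate 3 (edgeR adjusted p = 0.0888 and 0.0613).

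Adamts7 and Adamts12 cut COMP, a cartilage and tendon matrix protein. Adamts7 was at 22.4, 23.4 and 24.4 CPM in mock, 20.4, 20.05 and 21.2 CPM in GMT, 26.04, 25.6 and 23.8 CPM in GHMT and 34.8, 35.1 and 27.7 CPM in AGHMT at day 2. At day 7 Adamts7 was at 29.6, 28.7 and 26.7 CPM in mock, 18.3, 16.9 and 17.1 CPM in GMT, 27.04, 25.3 and 28.1 CPM in GHMT and 39.1, 36.1 and 39.2 CPM in AGHMT. AGHMT was the highest group at both days, above mock by 0.47 ± 0.07 and 0.43 ± 0.07 (edgeR adjusted p = 1.68e-06 and 5.95e-06). Adamts12 was at 59.5, 62.5 and 65.3 CPM in mock, 80.5, 85.6 and 78.3 CPM in GMT, 83.2, 83.7 and 63.5 CPM in GHMT and 113, 102 and 56.95 CPM in AGHMT at day 2. At day 7 Adamts12 was at 118, 113 and 114 CPM in mock, 43.1, 43.9 and 43.5 CPM in GMT, 49.5, 37.96 and 54.1 CPM in GHMT and 47.4, 47.7 and 47.9 CPM in AGHMT. By mean, mock was the lowest group at day 2 and the highest at day 7, although AGHMT replicate 3, 1 of the libraries that stand apart, was below every mock library at day 2. GMT was at 0.38 and -1.40 against mock, and its day 2 call was lost without replicate 1 or 2 of either group (edgeR adjusted p = 0.0533 to 0.0882). Markers of cartilage summed to 26.53 to 65.43 CPM over all libraries.

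Among the ADAMTS proteases of fibrillin microfibrils and other substrates, Adamts18 (chr8:113697126-113848738, minus strand) had the highest fold change against mock of any tested member with GMT at day 2. It was at 0.146, 0.19 and 0.389 CPM in mock, 35.3, 39.2 and 36.04 CPM in GMT, 22.8, 23.1 and 19.3 CPM in GHMT and 21.1, 21.99 and 16.2 CPM in AGHMT at day 2. At day 7 Adamts18 was at 0.621, 0.513 and 0.476 CPM in mock, 13.6, 13.8 and 12.5 CPM in GMT, 21.7, 18.1 and 18.8 CPM in GHMT and 6.07, 5.65 and 5.5 CPM in AGHMT. Every cocktail library was above every mock library, and the cocktail order differed between days, with GMT highest at day 2 and GHMT at day 7. The differences from mock were 7.25 ± 0.18, 6.48 ± 0.19 and 6.34 ± 0.19 at day 2 (edgeR adjusted p = 2.2e-21, 6.92e-20 and 9.18e-20) and 4.62, 5.17 and 3.41 at day 7. AGHMT was below GHMT at day 7 by -1.77 ± 0.11 (adjusted p = 1.63e-12). Its 100 upstream bases (chr8:113848840-113848939, read on the minus strand, RefSeq GRCm38.p6) hold none of the capitalised motifs.
Adamts18: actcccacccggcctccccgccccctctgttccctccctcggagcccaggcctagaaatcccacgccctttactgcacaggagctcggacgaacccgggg

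Adamts17 (chr7:66839735-67153171), which is linked to fibrillin microfibrils, had the largest difference between days of any member. At day 2 it was at 0.437, 0.406 and 0.329 CPM in mock, 17.5, 17.1 and 17.3 CPM in GMT, 8.36, 8.12 and 8.1 CPM in GHMT and 32.6, 31.3 and 22.7 CPM in AGHMT. At day 7 Adamts17 was at 14.5, 14.1 and 11.1 CPM in mock, 3.35, 4.05 and 4.003 CPM in GMT, 2.69, 2.83 and 3.44 CPM in GHMT and 6.98, 7.8 and 7.67 CPM in AGHMT. All cocktail libraries were far above mock at day 2 and all below it at day 7, when mock had risen by 5.07 ± 0.20. The effect of GMT was 5.45 ± 0.19 at day 2 and -1.80 ± 0.13 at day 7, a day difference of -7.25 ± 0.23 (edgeR adjusted p = 5.1e-18), with -6.53 for GHMT and -7.01 for AGHMT against the same mock groups. AGHMT exceeded GHMT by 1.81 at day 2 and 1.33 at day 7.

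Adamts10, a protease that binds fibrillin, was at 54.7, 58.4 and 59.3 CPM in mock, 52.3, 46.7 and 49.7 CPM in GMT, 43.5, 43.9 and 44.6 CPM in GHMT and 35.4, 36.2 and 32.8 CPM in AGHMT at day 2. At day 7 Adamts10 was at 96.4, 93.3 and 89.3 CPM in mock, 28.1, 31.7 and 32.1 CPM in GMT, 34.01, 33.1 and 36.8 CPM in GHMT and 33.3, 35.6 and 35.5 CPM in AGHMT. It was lower in all cocktails at both days, at -1.60, -1.43 and -1.42 at day 7. Adamts6 was at 58.8, 59.6 and 59.4 CPM in mock, 47.4, 47.7 and 45.8 CPM in GMT, 40.4, 40.98 and 33.3 CPM in GHMT and 32.7, 34.02 and 21.7 CPM in AGHMT at day 2. At day 7 Adamts6 was at 34.7, 37.1 and 39.6 CPM in mock, 22.04, 24.4 and 21.5 CPM in GMT, 14.4, 13.8 and 16.96 CPM in GHMT and 13.9, 15.02 and 15.9 CPM in AGHMT. It was lower too, at -0.71, -1.30 and -1.31. Adamts16 was at 0.612, 1.3 and 0.928 CPM in mock, 0.103, 0.113 and 0.237 CPM in GMT, 0.33, 0.596 and 0.366 CPM in GHMT and 0.695, 0.559 and 0.527 CPM in AGHMT at day 2. At day 7 Adamts16 was at 0.916, 1.15 and 1.2 CPM in mock, 0.119, 0.0571 and 0.188 CPM in GMT, 0.168, 0.245 and 0.131 CPM in GHMT and 0.189, 0.294 and 0.149 CPM in AGHMT. Its levels in the cocktails were lower than mock at day 7, at -3.11, -2.54 and -2.36. Adamts19 had 1 read over the GHMT group at day 7 and 16 to 40 in the other day 7 groups.

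Of the ADAMTS-like proteins, Adamtsl2 (chr2:27079379-27108981), which binds fibrillin and the latent TGF-beta binding protein, had the highest fold change against mock of any tested member with GHMT and with AGHMT at day 2. Its values at day 2 were 2.83, 3.82 and 3.5 CPM in mock, 217, 237 and 215 CPM in GMT, 554, 549 and 499 CPM in GHMT and 552, 576 and 526 CPM in AGHMT. At day 7 Adamtsl2 was at 33.8, 26.96 and 25.1 CPM in mock, 172, 194 and 176 CPM in GMT, 629, 644 and 600.00 CPM in GHMT and 416, 463 and 408 CPM in AGHMT. No mock library reached a cocktail library, and GHMT and AGHMT were above GMT at both days. The differences from mock were 6.04 ± 0.11, 7.30 ± 0.11 and 7.34 ± 0.11 at day 2 (edgeR adjusted p = 5.98e-24, 1.83e-25 and 1.21e-25). At day 7, when mock had risen by 3.08, they were 2.66, 4.45 and 3.90. GHMT exceeded GMT by 1.26 ± 0.08 at day 2 and 1.79 ± 0.08 at day 7 (edgeR adjusted p = 9.89e-13 and 1.63e-15). Of the 100 upstream bases (chr2:27079279-27079378, plus strand, RefSeq GRCm38.p6) the capitals mark TATAAA at -30 to -25.
Adamtsl2: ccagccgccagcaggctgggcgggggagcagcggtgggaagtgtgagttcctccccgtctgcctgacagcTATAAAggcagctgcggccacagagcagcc

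Adamtsl1 (punctin), a secreted matrix protein, was at 18.5, 24.6 and 23.6 CPM in mock, 23.8, 23.1 and 23.4 CPM in GMT, 121, 129 and 99.2 CPM in GHMT and 163, 167 and 103 CPM in AGHMT at day 2. At day 7 Adamtsl1 was at 114, 109.5 and 111 CPM in mock, 21.4, 23.3 and 23.99 CPM in GMT, 52.5, 47.3 and 46.2 CPM in GHMT and 85.8, 90.2 and 89.6 CPM in AGHMT. GHMT exceeded GMT by 2.31 ± 0.13 at day 2 and 1.09 ± 0.13 at day 7 (edgeR adjusted p = 1.76e-13 and 2.63e-07), and AGHMT exceeded GHMT at day 7 by 0.86 ± 0.12 (adjusted p = 2.64e-06). At day 2 the Akt1 step (0.31) lost its call when only the compared libraries were fitted (edgeR adjusted p = 0.202). It was also lost without AGHMT replicate 1 or 2 or GHMT replicate 3 (edgeR adjusted p = 0.17, 0.2 and 0.194).

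Adamtsl5, another fibrillin-binding protein, was at 43.1, 47.7 and 42.6 CPM in mock, 94.8, 92.6 and 90.3 CPM in GMT, 29.7, 31.01 and 30.1 CPM in GHMT and 10.5, 11.5 and 12.3 CPM in AGHMT at day 2. At day 7 Adamtsl5 was at 49.2, 49.5 and 45.4 CPM in mock, 135, 146 and 144 CPM in GMT, 60.01, 68.2 and 65.8 CPM in GHMT and 25.8, 25.1 and 25.7 CPM in AGHMT. It fell at each added factor, with GMT the highest group and AGHMT the lowest at both days, by -1.61 ± 0.06 and -1.40 ± 0.06 at day 2 and -1.13 and -1.34 at day 7 (edgeR adjusted p at day 2 = 1.13e-17 and 3.04e-15). Against mock at day 7, GMT was at 1.56, GHMT at 0.43 and AGHMT at -0.91. Adamtsl3 was at 25.7, 30.5 and 29.98 CPM in mock, 21.5, 20.3 and 19.5 CPM in GMT, 31.7, 31.2 and 25.1 CPM in GHMT and 11.01, 11.3 and 9.09 CPM in AGHMT at day 2. At day 7 Adamtsl3 was at 50.4, 51.8 and 45.9 CPM in mock, 11.6, 11.6 and 14.8 CPM in GMT, 14.9, 11.3 and 14.8 CPM in GHMT and 8.18, 7.48 and 9.22 CPM in AGHMT. AGHMT was the lowest group at both days, and the day 7 differences from mock were -1.96, -1.85 and -2.57. Adamtsl4, also a fibrillin-binding protein, was at 19.8, 21.7 and 19.2 CPM in mock, 16.4, 16.2 and 16.1 CPM in GMT, 23.03, 22.3 and 22.95 CPM in GHMT and 18.9, 19.6 and 15.9 CPM in AGHMT at day 2. At day 7 Adamtsl4 was at 53.4, 49.1 and 42.4 CPM in mock, 18.6, 17.1 and 17.4 CPM in GMT, 13.3, 12.02 and 13.2 CPM in GHMT and 11.2, 11.2 and 11.7 CPM in AGHMT. All cocktail libraries were below mock at day 7, at -1.45, -1.92 and -2.09.

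Mock itself differed between the days. From day 2 to day 7 in mock, 32 of 44 members were higher and 4 lower, against 29.7% and 25.8% of all tested genes, with a member median of 0.77. The effect of a cocktail against the mock of its day was lower at day 7 than at day 2 for 29 members with GMT (25.3% of all genes), 28 with GHMT (26%) and 25 with AGHMT (26.1%), and higher for 3, 6 and 8 (24.3%, 23.3% and 24.8%). The macrophage and fibroblast marker sums also rose in mock over this time, and their part in these member values was not tested. Across days, 25 members were lower than mock at both days with GMT (23.4% of all genes), 18 with GHMT (23.1%) and 23 with AGHMT (27.5%), and 5, 4 and 7 were higher at both (25.1%, 25.1% and 29%). Members called in opposite directions at the 2 days numbered 7 with GMT (6.7% of all genes), 11 with GHMT (6.85%) and 9 with AGHMT (6.5%), Adamts17, Adamts3, Timp3, Mmp10 and Timp1 in each case.

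**Figure D4:**
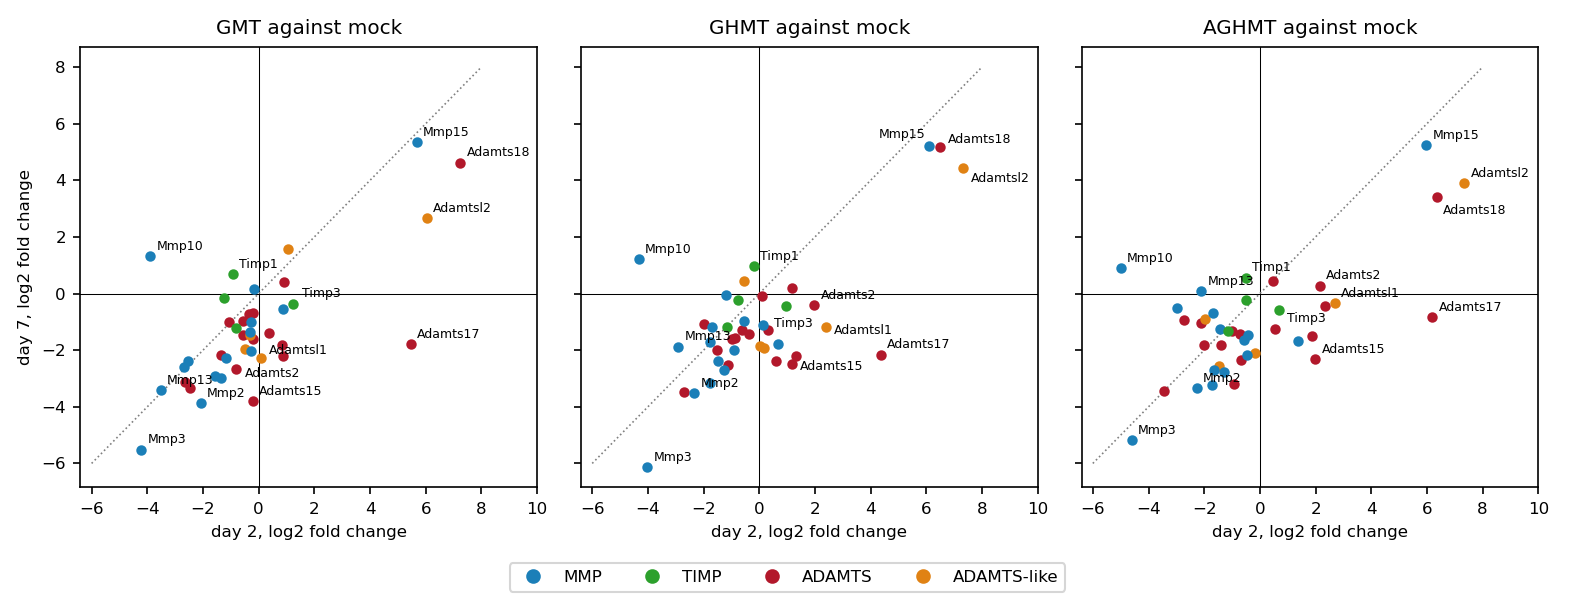
Log2 fold change against mock at day 2 (horizontal) and day 7 (vertical) of 41 tested members in each cocktail, leaving out 3 members with a group at or under 3 reads. Adamts17 lies far to the right and below 0, and Mmp15 and Adamtsl2 lie at the upper right.

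The step from GMT to GHMT, which adds Hand2, had 17 members higher and 16 lower at day 2 (23.1% and 21.7% of all genes) and 15 higher and 7 lower at day 7 (18.7% and 18.8%). The members' median was 0.14 at day 2 and -0.02 at day 7. In GHMT 11 members were higher at both days, against 13.2% of all genes (Adamts1, Adamts2, Adamts7, Adamts15, Adamtsl1, Adamtsl2, Mmp9, Mmp14, Mmp19, Mmp23 and Timp1), and 5 were lower at both, against 12.9% (Adamts4, Adamts6, Adamts19, Adamtsl5 and Mmp11). Opposite directions at the 2 days were called for 4 members (1.57% of all genes), higher then lower for Adamtsl4 and lower then higher for Adamts10, Adamts18 and Mmp2. The day 2 call was lost without GHMT replicate 3 or GMT replicate 1 or 2 for Adamts6 (edgeR adjusted p = 0.0629 to 0.155), and without GMT replicate 1 for Adamts10 (0.0943). The day 7 call was lost without GHMT replicate 2 or GMT replicate 3 for Timp1 (0.0644 and 0.0512) and without GHMT replicate 3 or GMT replicate 1 for Adamts10 (0.119 and 0.152).

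The step from GHMT to AGHMT, which adds Akt1, had 12 members higher and 15 lower at day 2 (25.7% and 27%) and 11 higher and 12 lower at day 7 (25% and 23.6%), with a member median of 0.01 at both days. In AGHMT 8 were higher at both days (Adamts2, Adamts3, Adamts7, Adamts17, Adamts19, Adamtsl1, Mmp13 and Mmp19, 17.2% of all genes) and 7 lower at both (Adamts1, Adamts9, Adamtsl3, Adamtsl5, Mmp11, Mmp23 and Timp1, 16.3%). Besides the day 2 calls of Adamts2, Adamtsl1 and Mmp13 noted with those genes, the day 2 call of Mmp11 was lost with DESeq2 (adjusted p = 0.0534), without the 3 libraries that stand apart (edgeR adjusted p = 0.153) and without any single library of the 2 groups but GHMT replicate 1 (up to 0.121), and that of Timp1 when only the compared libraries were fitted (0.0555). Adamts8 and Mmp14 were higher at day 2 and lower at day 7 (2.14% of all genes had opposite directions), with Mmp14 at 0.44 ± 0.04 and -0.17 ± 0.04 (edgeR adjusted p = 2.99e-09 and 0.00144). The day 7 call of Adamts8 was lost without AGHMT replicate 1 or 3 or GHMT replicate 1 (edgeR adjusted p = 0.0551 to 0.135).

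Without the 3 libraries that stand apart, 9 of 616 member values lost their call, 12 gained one and 1 gained one with the opposite sign. Against mock, calls were gained with GHMT at day 2 for Adamts12 (0.42, edgeR adjusted p = 3.77e-09, against 0.30 ± 0.15 in all libraries) and Adamts7 (0.14, 0.0246). They were lost for Mmp24 with GHMT at day 7 (given above) and Adamts16 with AGHMT at day 2 (-0.59, 0.0809). Of the Hand2 step, calls were gained for Adamts12 and Mmp15 at day 7 (0.25 and -0.13) and lost for Adamts5 at day 2 (-0.22, edgeR adjusted p = 0.0625). Of the Akt1 step, they were gained for Adamts12 and Adamts4 at day 2 (0.37 and 0.23) and for Timp3 and Adamtsl4 at day 7 (-0.22 and -0.22), and lost for Mmp11 and Mmp13 at day 2 and Mmp24 at day 7 (0.97, edgeR adjusted p = 0.0568). Adamts12 in the Akt1 step at day 7 was the one that changed sign, to -0.12 (edgeR adjusted p = 0.0486). Of the day differences, calls were gained for Adamts6 with AGHMT (-0.48) and for Adamts7 and Mmp9 with GHMT (-0.18 and 0.75), and lost for Adamts20 with AGHMT (0.83, edgeR adjusted p = 0.052) and Adamts8 with GHMT (-0.81, 0.0899). In mock between days, Adamtsl5 gained a call (0.11) and Mmp24 lost one (2.06, edgeR adjusted p = 0.0504).

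**Figure D5:**
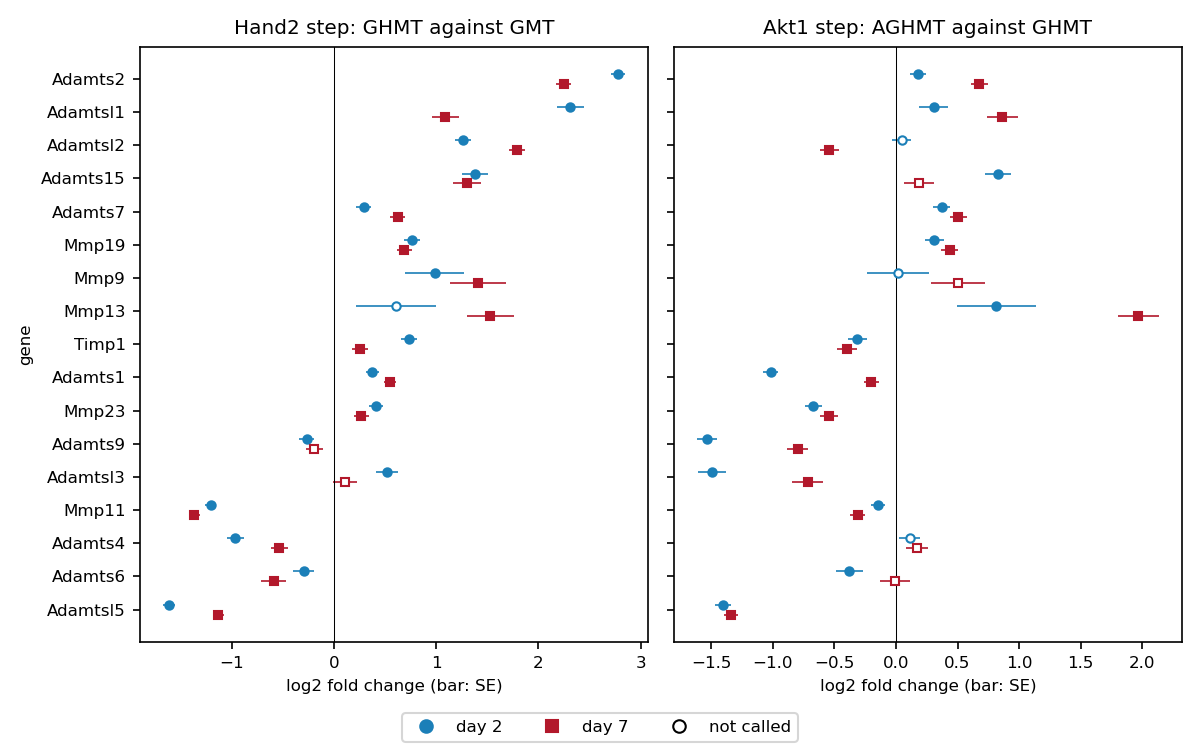
Log2 fold change (point) ± SE (bar) of 17 members for the step from GMT to GHMT (left) and from GHMT to AGHMT (right), day 2 as circles and day 7 as squares, with open symbols for values not called. Adamts2 and Adamtsl1 have the highest day 2 values of the Hand2 step, and Adamtsl5 is below 0 in both steps at both days.

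The genes around the module were read in 9 lists. Beside their counts stand, over all tested genes at day 7, 37.1%, 36.3% and 38.6% higher and 36%, 35.6% and 38.1% lower with GMT, GHMT and AGHMT, and a list whose shares lie near these does not stand apart. Of 8 tested activators (the plasminogen system and proprotein convertases), 2 were higher and 5 lower in each cocktail at day 7. With AGHMT at day 7 Pcsk6 differed from mock by -2.59, Pcsk5 by -2.20 and Plat (tissue plasminogen activator) by -1.38. Plat was also the gene of the 3 with the largest Hand2 step at day 2, 4.07 ± 0.06 (edgeR adjusted p = 1.04e-24), from 16.5 ± 1.22 CPM in GMT to 278 ± 11.1 CPM in GHMT.

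Of 15 other protease inhibitors and family relatives that need not inhibit proteases, 6 were higher and 8 lower with GMT and with GHMT, and 6 and 7 with AGHMT. Serpinf1 (PEDF) was 963 ± 41.1 CPM in mock and 110.3 ± 9.47 CPM in AGHMT (-3.13 ± 0.06, edgeR adjusted p = 1.62e-23), Spock3 differed by -6.04 and Spock2 by 2.28. Of 5 procollagen C-proteinase genes, 3 were higher and 2 lower in each cocktail at day 7. Bmp1, the protease that removes the other propeptide of fibrillar collagens, was 348 ± 7.38 CPM in mock and 629.9 ± 8.78 CPM in AGHMT (0.86), its enhancer Pcolce differed by -1.41 and Pcolce2 by 2.06.

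Of 12 proteoglycan and glycoprotein substrates, 4 were higher and 7 lower with GMT, and 5 and 7 with GHMT and AGHMT. Biglycan (Bgn) was 6978 ± 278 CPM in mock and 820.3 ± 75.6 CPM in AGHMT (-3.09 ± 0.07, edgeR adjusted p = 6.47e-23), Thbs2 (thrombospondin 2) differed by -3.73, and Ncan (neurocan) had 6 reads over the mock group and was at 11.6 ± 0.183 CPM in AGHMT. Of 9 uptake and surface partners, 3, 3 and 4 were higher and 5, 5 and 4 lower. Mrc2, a collagen receptor that carries fragments into the cell, was 732 ± 34.7 CPM in mock and 202 ± 3.97 CPM in AGHMT (-1.86), while Lrp2 differed by -3.25 and Itgb3 by 1.16.

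Of 10 ADAM family genes, 4, 3 and 4 were higher and 6, 6 and 4 lower with GMT, GHMT and AGHMT at day 7, with Adam8, Adam12 and Adam33 at -2.52, -2.02 and -1.33 in AGHMT. Of 9 cysteine cathepsins, 7, 4 and 4 were higher and 2, 4 and 5 lower, with Ctso at 2.23, Ctsh at 1.63 and Ctsc at 0.76. A list of 13 transcription factor genes held AP-1 factors, ETS factors and Runx2, which belongs to neither family. Of these 13, 3, 1 and 1 were higher and 9, 11 and 11 lower at day 2 (33.9%, 34.9% and 38% of all genes higher, 33.1%, 33.3% and 37.4% lower), and 6, 6 and 3 higher and 5, 6 and 8 lower at day 7. With AGHMT at day 7 Runx2 differed by -1.91, Ets1 by -0.67 and Etv5 by -0.57. Of 11 tested cytokine and growth factor genes, 8, 7 and 6 were higher and 3, 3 and 4 lower at day 7. Hbegf was 18.3 ± 1.09 CPM in mock and 152 ± 9.16 CPM in AGHMT (3.05), and Tgfb2 and Tgfb3 differed by 2.04 and 1.39.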

How the data were processed

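Total RNA of MEFs was sequenced in 24 libraries, 3 in each of 8 groups, with groups and replicate numbers from the labels. Raw counts of reads per gene, as whole numbers, make up the deposited table analysed here, and the deposited log2 table equals log2 CPM with values under 1 CPM set to 0, within 0.00603. Per the submitters' processing notes, the tools were featureCounts 1.4.6, HISAT2 2.0.1, DESeq2 1.6.3 and Trim Galore 0.4.1 on GRCm38 (mm10), with neither role nor order stated. The strand setting and annotation release were not given in the sources, so reads of overlapping genes may be counted together.

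Genes kept by edgeR's filterByExpr (17576, of which 44 are members) were scaled by TMM and fitted with edgeR 4.0.16 in R 4.3.3, all libraries together with a mean for each group, 16 residual degrees of freedom and the two-sided quasi-likelihood F test. They held at least 99.95% of each library's counts, and the common biological coefficient of variation was 5.55%. P-values were Benjamini-Hochberg adjusted over all tested genes and called under 0.05. Exon lengths and positions came from GENCODE M21, which matched 47601 identifiers and all 51 members, and promoter sequence came from RefSeq on GRCm38.p6. No 2 libraries of a group were closer than sampling noise (lowest chi-square per degree of freedom 1.489).

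Every member may be named, and library values are given for members of at least 20 CPM in a group or among the 3 highest or lowest called fold changes of a comparison with at least 1 CPM. Of each further list up to 3 genes are named, by smallest adjusted p in AGHMT against mock at day 7. Members and lists were chosen with earlier results of these data known. On simulated counts of 17576 genes modelled on AGHMT against mock at day 7, only 50 genes were changed at each fold. The fit recovered 28% of genes changed 1.2-fold and 72% of those changed 1.5-fold, then 86% (2-fold) and 98% (4-fold), with 1 of 17376 unchanged genes called. In the data 38.6% of genes were called higher and 38.1% lower in this comparison. The adjusted threshold depends on the share of changed genes, so these rates do not carry over to the data. Alternatives were DESeq2 1.42.0, RLE scaling, fits of only the compared libraries, no low-count filter, the replicate number as a block and each library left out. Leaving out the 3 libraries that stand apart was added after seeing the data.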

Additional observations from a re-analysis of the deposited data

Results flagged for a closer look

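The effect of a cocktail against the mock of its day differed between day 2 and day 7, by edgeR's test of the difference itself, for 32 of 44 members with GMT, 34 with GHMT and 33 with AGHMT. Over all tested genes the effect was lower at day 7 for 25.3%, 26% and 26.1% and higher for 24.3%, 23.3% and 24.8%. The 3 cocktails share the mock libraries of each day. The members listed next were called in opposite directions at the 2 days, and each value is the log2 fold change at day 7 minus that at day 2. With GMT these were Adamts12 (-1.78), Adamts17 (-7.25), Adamts3 (-2.65), Adamts9 (-3.06), Timp3 (-1.60), Mmp10 (5.22) and Timp1 (1.63). With GHMT they were Adamts15 (-3.66), Adamts17 (-6.53), Adamts2 (-2.38), Adamts3 (-3.52), Adamts9 (-2.98), Adamtsl1 (-3.58), Mmp17 (-2.47), Timp3 (-1.41), Adamtsl5 (0.98), Mmp10 (5.55) and Timp1 (1.15). With AGHMT they were Adamts12 (-1.80), Adamts15 (-4.30), Adamts17 (-7.01), Adamts3 (-3.39), Adamtsl1 (-3.03), Mmp17 (-3.05), Timp3 (-1.26), Mmp10 (5.89) and Timp1 (1.06).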

How the results depend on the processing

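The number of members called in each of the 14 comparisons stayed within 1.5 times its value under every alternative run. Leaving out 1 library at a time gave between 24 and 27 members for AGHMT against GHMT at day 2, where 27 were called, and between 21 and 27 under the other alternatives. For AGHMT against mock at day 7 the counts were 39 to 41 and 41. Of 8184 values of single members compared with their alternatives, 1 changed sign with a call in either fit, Adamts12 in AGHMT against GHMT at day 7, which was not called with all libraries (0.02 ± 0.16) and was at -0.12 without the 3 libraries that stand apart (edgeR adjusted p = 0.0486), and the cause was not tested. Groups of a day share replicate numbers, and the deviations of same-numbered libraries correlated at -0.042 to 0.274. By a rule that needed all 3 numbers to correlate, 0 of 11 comparisons counted as paired. AGHMT and GHMT at day 2 had the highest value, with 0.094, 0.072 and 0.274 for replicates 1, 2 and 3. Replicate 3 of both groups is among the libraries that stand apart, so these libraries did share a deviation. With the replicate number as a block, 611 member calls kept their side of the threshold, 4 were gained and 1 was lost. Members under about 1 CPM rest on few reads, and their differences were not detectable unless large.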
